A study of Homo sapiens with 12 samples.

Results

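The 38 genes described here serve glycolysis or respond to low oxygen, and their mRNA was read in the human neuroblastoma line BE(2)-C transfected with a GRHL1 plasmid or its empty vector. They were named as a list of gene symbols, and every probe that the platform annotation assigns to 1 of them was taken. In all 63 of 47323 probes on the array were found, for 36 of the 38 genes, and the levels of SLC16A3 and CA9 are not analysed here. Of the 63 probes 55 were detected on at least 2 of 12 arrays, which left 35 genes among 12323 tested in the whole series. PDK1, the mitochondrial kinase that inhibits pyruvate dehydrogenase, passed no detection filter and was not tested. The genes fell into 15 glycolytic enzymes (all tested), 21 other targets of the hypoxia-inducible factors (18 tested) and 2 genes for the factors' alpha subunits (both tested).

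The groups were cells given pTRex-GRHL1 at 24, 48 or 72 h and cells given pTRex-Dest30, the vector without an insert, at the same times, with 2 arrays each and 12 arrays in all. All groups received 2 µg of plasmid with effectene in medium with 10% serum, and the labels used here name no oxygen treatment. GRHL1 encodes a transcription factor of the grainyhead family. Whether 2 arrays of a group came from separate cultures is not in the labels, so the p-values speak for the spread among these arrays, which may be technical, and their number limits the precision.

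Hypoxia-inducible factors (HIF) are pairs of an oxygen-regulated alpha subunit and a constant beta subunit. When oxygen is present, prolyl hydroxylases mark the alpha subunit for destruction, so that its level is set mainly at the protein and is not read directly by an mRNA array. In low oxygen the pair binds short DNA motifs near genes for glucose uptake, glycolysis, mitophagy and blood vessel growth and raises their transcription. Many tumour cells also run glycolysis at a high rate when oxygen is present, and MYC proteins, of which MYCN is the neuroblastoma member, bind promoters of several of the same glycolytic genes.

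The names of 7 of 12 columns in the scanner table conflicted with those of the matching columns in the normalized table, none of them at 24 h. The names of the normalized table were used, and a GRHL1 probe, seen before that choice, ran the same way as these names on all 12 arrays. Its values at 48 h (6225 and 4669) and 72 h (5968 and 5459) in GRHL1 cells overlapped, so it cannot check the time in a name. By that probe the scanner names put some GRHL1 arrays among the empty vector arrays. That probe, ILMN_1651286, read 4669 to 12960 in GRHL1 cells and 92.28 to 122.8 in empty vector cells, where all 6 arrays lay below the detection limit of 128.3. Other GRHL1 probes, ILMN_1769934 and ILMN_1795767, were each detected on 1 array and did not rise. They read 119.5 to 134 and 95.83 to 106 in GRHL1 cells, against 117.5 to 131.1 and 102.4 to 122.6 in empty vector cells. Values are normalized intensity units, and differences are on a log2 scale after background correction with an offset of 16, and for dim genes their size depends on that correction. Between 17950 and 19427 probes were detected per array, and replicates of a group correlated across genes with r of 0.9917 to 0.9925. The 11 adrenergic neuroblastoma markers tested summed to 62650 to 66660 in GRHL1 cells and 62910 to 68590 in empty vector cells.

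Adjusted p-values are from limma with the Benjamini-Hochberg method over all 12323 genes, a gene was called at an adjusted p under 0.05, and the error given is limma's standard error (SE). In RNA from a whole culture, a change within each cell and a change in the share of cells that express a gene cannot be told apart.

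Averaged over the 3 times, 2 of the 35 tested genes rose with the GRHL1 plasmid and 0 fell. They were ADM, which encodes the secreted vasodilator peptide adrenomedullin, and BNIP3L, which encodes a receptor on mitochondria that marks them for autophagy. Over all genes tested 1.53% rose and 0.179% fell, and no test of the list as a whole was made. At an unadjusted limma p under 0.05 the list held 4 higher and 1 lower gene, beside 6.51% and 5.7% of all genes. The median difference was -0.01 on the log2 scale for the 35 genes and -0.01 for all genes.

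Both called genes belong to the other HIF targets, and 0 of the 15 glycolytic enzymes were called in either direction. The enzymes' differences ran from -0.16 to 0.19, with 5 above 0 and 10 below, and their median was -0.03. All 15 enzymes had 95% intervals within 0.5 of 0 on the log2 scale, the widest bounds being -0.36 and 0.32. Of the 18 other targets, 11 lay above 0 and 7 below, with a median of 0.03 and a range from -0.23 to 0.72, and 17 had intervals within 0.5 of 0. Of all 12323 genes tested, 5735 lay above 0 and 6588 below, and 11310 had such intervals. The called share of all genes was 1.53% higher and 0.179% lower.

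**Figure D1:**
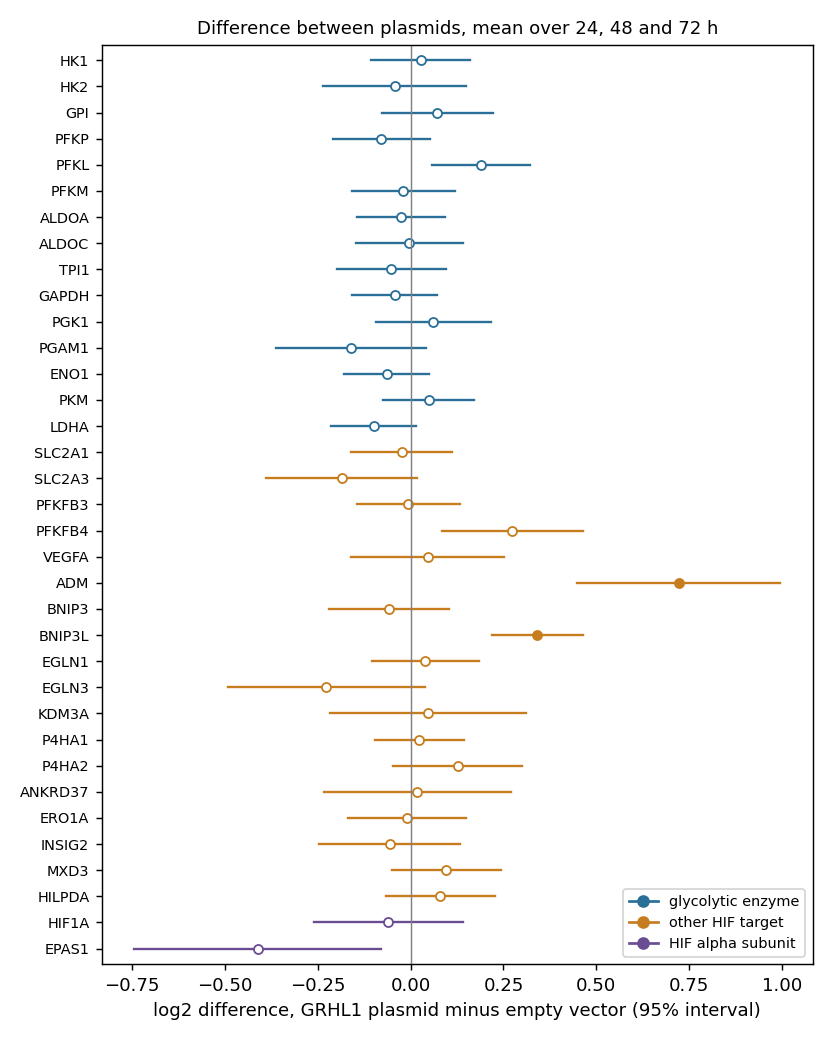
Log2 difference of GRHL1 plasmid minus empty vector for each of the 35 tested genes, averaged over 24, 48 and 72 h, with 95% intervals as bars. Filled points are the called genes, ADM at 0.72 and BNIP3L at 0.34, and the 15 glycolytic enzymes at the top lie between -0.16 and 0.19.

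ADM carried the larger rise. Its probe, ILMN_1708934, read 302.3 and 305.2 at 24 h, 259.4 and 213.7 at 48 h and 229.9 and 218.3 at 72 h in GRHL1 cells. In empty vector cells it read 162.2 and 186.2 at 24 h, 160.9 and 193.1 at 48 h and 166.5 and 210.9 at 72 h. The lowest GRHL1 array (213.7) stood above the highest empty vector array (210.9), a separation that ADM alone (1 of 35) and 1.43% of all genes showed in this direction. In the opposite direction it was seen for 0 of 35 and 0.357% of all genes. The mean difference was 0.72 ± 0.12 SE (1.65-fold, 95% interval 0.45 to 0.99, adjusted p = 0.0176, 6 arrays against 6). By time it was 1.17 at 24 h (adjusted p = 0.0614), 0.61 at 48 h (adjusted p = 0.439) and 0.38 at 72 h (adjusted p = 0.775). The test for a change of the difference with time gave an adjusted p of 0.921. The call was lost in 6 of 12 fits that left out 1 array, with adjusted p between 0.0117 and 0.0618. It was also lost without a detection filter (adjusted p = 0.0581) and with same-numbered arrays as a replicate block. Under the scanner table's names the difference was 0.40 (adjusted p = 0.997). That is no check of the call, since by the GRHL1 probe those names put some GRHL1 arrays among the empty vector arrays.

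BNIP3L rose less, with a smaller error. Probe ILMN_1718961 read 445.6 and 449.1 at 24 h, 549.8 and 574 at 48 h and 536.8 and 513.4 at 72 h in GRHL1 cells. Empty vector cells gave 376.9 and 382.1 at 24 h, 412.7 and 455.7 at 48 h and 445 and 428.7 at 72 h. Within each time both GRHL1 arrays lay above both empty vector arrays, as they did for 3 of 35 genes of the list and 2.78% of all genes, while across times the groups overlapped. The mean difference was 0.34 ± 0.05 SE (1.27-fold, 95% interval 0.22 to 0.46, adjusted p = 0.0125), made of 0.29, 0.43 and 0.31 at 24, 48 and 72 h. A second probe, ILMN_2045419, gave 0.32 ± 0.12 SE (adjusted p = 0.351 over probes). The call held in all 12 fits that left out 1 array (adjusted p 0.0155 to 0.0485), but not without a detection filter (adjusted p = 0.0649). Under the scanner table's names, which mix the plasmids and so are no check of the call, the difference was 0.01 (adjusted p = 0.997). BNIP3, the sister receptor, differed by -0.06 ± 0.07 SE (adjusted p = 0.829).

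**Figure D2:**
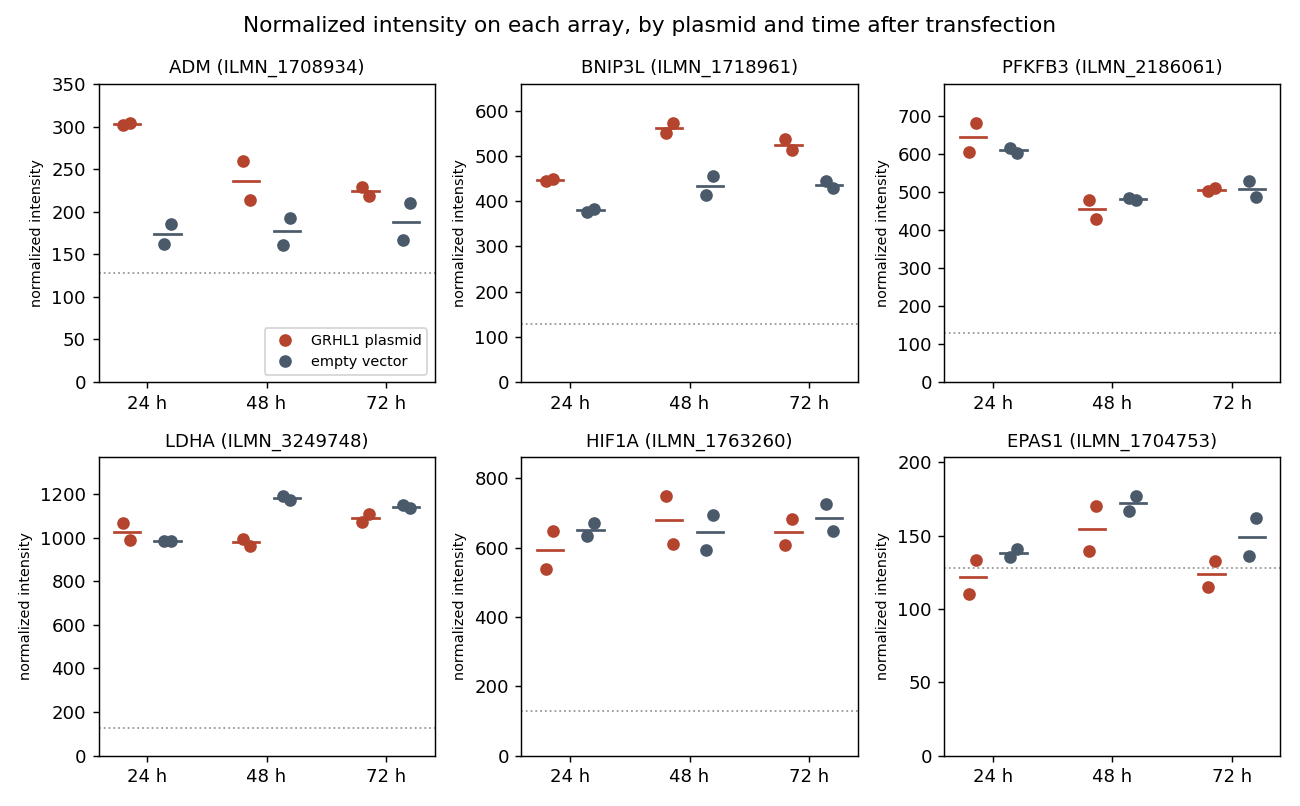
Normalized intensity on each array for 6 genes, GRHL1 plasmid left of empty vector at 24, 48 and 72 h, with lines at the group means and a dotted line at the detection limit of 128.3 units. ADM and BNIP3L lie higher with GRHL1 at every time, PFKFB3 reads below its 24 h arrays at 48 and 72 h with both plasmids, LDHA changes order between times, HIF1A overlaps and EPAS1 sits near the limit.

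The first steps of glycolysis showed no call between plasmids. The hexokinases HK1 and HK2, which trap glucose as its phosphate, differed by 0.03 and -0.04, and the isomerase GPI by 0.07. Of the phosphofructokinase subunits, which set the committed step, PFKP differed by -0.08 and PFKM by -0.02. The liver-type subunit PFKL had the largest positive value of the enzymes, 0.19 ± 0.06 SE (adjusted p = 0.195). PFKL read 170.4 and 157.3 at 24 h, 173.7 and 184.1 at 48 h and 199.1 and 193.3 at 72 h in GRHL1 cells, against 153.7 and 150 at 24 h, 179.6 and 172.8 at 48 h and 171.5 and 164.9 at 72 h in empty vector cells. The groups were apart at 24 and 72 h and overlapped at 48 h. A dimmer PFKL probe was above the detection limit on 1 of 6 GRHL1 arrays and 2 of 6 empty vector arrays, so no difference is given for it.

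The middle steps and ENO1, a later step, stayed close to 0 in the mean over the times. The aldolases ALDOA and ALDOC, which split the sugar, differed by -0.03 and -0.003, the triose isomerase TPI1 by -0.05 and the dehydrogenase GAPDH by -0.04. PGK1, the first enzyme of the pathway to make ATP, differed by 0.06. The GAPDH probe reached 59.8% to 69.8% of the brightest probe on its array, and the probe of ENO1, the enolase (-0.06), 53.2% to 62.4%. Within single times the plasmids were apart for some of these genes. Both GRHL1 arrays were lower for ENO1 at 24 and 72 h, TPI1 at 24 h and ALDOA at 48 h. They were higher for PGK1 at 72 h, and for GAPDH they were higher at 24 h and lower at 48 h.

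The lowest values of the enzymes were those of PGAM1 and LDHA, and neither was called. PGAM1, the phosphoglycerate mutase, had the lowest value, -0.16 ± 0.09 SE (adjusted p = 0.534). Its arrays read 2678 and 3163 at 24 h, 3245 and 2797 at 48 h and 2892 and 3333 at 72 h in GRHL1 cells, against 3197 and 3371 at 24 h, 3830 and 2979 at 48 h and 3142 and 3672 at 72 h in empty vector cells, so that the groups were apart at 24 h and overlapped later. PKM, the pyruvate kinase of most proliferating cells, differed by 0.05. LDHA, the lactate dehydrogenase subunit that turns pyruvate into lactate, read 1069 and 987.6 at 24 h, 995.1 and 963.8 at 48 h and 1070 and 1111 at 72 h in GRHL1 cells. In empty vector cells LDHA read 985.6 and 983.7 at 24 h, 1190 and 1175 at 48 h and 1151 and 1134 at 72 h. Its GRHL1 arrays were the higher pair at 24 h and the lower pair at 48 and 72 h, and the mean difference was -0.10 ± 0.05 SE (adjusted p = 0.482).

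For several enzymes the choice of probe set the sign of these small differences. HK2 (0.09), TPI1 (0.11) and PGK1 (-0.02) each had another detected probe of the opposite sign, and so did HK1 (-0.17), there on a dim probe that passed the limit in 5 of 6 GRHL1 arrays and 4 of 6 empty vector arrays. ALDOA gave -0.25 and 0.08 on its other probes, GAPDH -0.01 and 0.13, and PKM -0.08 and -0.26. The second PGAM1 probe (-0.31) and the second LDHA probe (-0.12) kept the sign. The lowest adjusted p among these probes was 0.297, for PGAM1, adjusted over probes.

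Glucose carriers and the enzymes that steer glycolysis were not called between plasmids. SLC2A1, the main glucose transporter of tumour cells, differed by -0.02 ± 0.06 SE, and the neuronal transporter SLC2A3 by -0.19 ± 0.09 SE (adjusted p = 0.457). SLC2A3 read 179.8 to 228.9 in GRHL1 cells and 199.1 to 279 in empty vector cells. These ranges over all times overlapped, and at 48 h both GRHL1 arrays lay below both empty vector arrays. PFKFB3 and PFKFB4 encode enzymes that make and break down the allosteric activator of phosphofructokinase. PFKFB3 differed by -0.01 ± 0.06 SE. PFKFB4 read 224.6 and 231.2 at 24 h, 227.7 and 189.6 at 48 h and 206 and 223.3 at 72 h in GRHL1 cells, against 210 and 207.9 at 24 h, 155.2 and 175.6 at 48 h and 204.6 and 198.2 at 72 h in empty vector cells. It shared with ADM and BNIP3L the pattern of both GRHL1 arrays above both empty vector arrays at all 3 times. Both GRHL1 arrays below both empty vector arrays at all 3 times were seen for 0 of 35 genes and 1.63% of all genes. The PFKFB4 difference of 0.27 ± 0.08 SE did not pass the test (adjusted p = 0.19).

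Among the remaining targets no gene was called. VEGFA, the vascular growth factor, differed by 0.05 ± 0.09 SE. The 5 oxygen-dependent hydroxylases and demethylases spanned -0.23 to 0.13. They are EGLN1 and EGLN3, which hydroxylate HIF alpha, the histone demethylase KDM3A, and P4HA1 and P4HA2, the catalytic subunits that hydroxylate collagen. EGLN3 was lowest at -0.23 ± 0.12 SE (adjusted p = 0.497) and dim, passing the limit in 4 of 6 GRHL1 arrays and 6 of 6 empty vector arrays. It read 112.8 to 145.2 in GRHL1 cells and 131.4 to 166.5 in empty vector cells, with both GRHL1 arrays below both empty vector arrays at 48 h alone. P4HA2 was highest at 0.13 ± 0.08 SE (adjusted p = 0.572), reading 341.8 to 447.9 in GRHL1 cells and 317.9 to 400.5 in empty vector cells, and 1 of its other probes was above the detection limit on 2 of 6 arrays of either plasmid. P4HA1 read 467.9 to 564.8 in GRHL1 cells and 464.2 to 529.8 in empty vector cells, and both P4HA genes overlapped between plasmids.

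ANKRD37, the endoplasmic reticulum oxidase ERO1A, INSIG2, which restrains sterol synthesis, MXD3, a MAX partner that opposes MYC, and HILPDA, a lipid droplet protein, spanned -0.06 to 0.10. MXD3 read 229.6 to 272.8 in GRHL1 cells and 217 to 263 in empty vector cells. INSIG2 read 251.8 to 262.5 in GRHL1 cells and 218.5 to 287.2 in empty vector cells. HILPDA read 706.9 to 791.4 in GRHL1 cells and 632.3 to 814.8 in empty vector cells. In each of these 3 genes the plasmids' ranges over all times overlapped. Within single times some pairs were apart. With GRHL1 both arrays were higher for MXD3 and lower for INSIG2 at 72 h. For HILPDA they were lower at 24 h and higher at 48 h, where it read 791.4 and 773.3 against 632.3 and 665.1.

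Neither gene of a HIF alpha subunit was called between plasmids. HIF1A read 539.5 and 648.8 at 24 h, 748.2 and 611.4 at 48 h and 607 and 681.8 at 72 h in GRHL1 cells, against 632.5 and 670.5 at 24 h, 593.9 and 694.8 at 48 h and 725.4 and 647.9 at 72 h in empty vector cells. The groups overlapped at every time, the difference was -0.06 ± 0.09 SE (95% interval -0.26 to 0.14), and 2 further probes gave 0.15 and -0.01. EPAS1, which encodes HIF-2 alpha, read 110.4 and 133.7 at 24 h, 139.4 and 170.1 at 48 h and 115.2 and 132.5 at 72 h in GRHL1 cells. In empty vector cells it read 135.4 and 141 at 24 h, 167.2 and 176.9 at 48 h and 136.1 and 162.4 at 72 h. In these values both GRHL1 arrays lay below both empty vector arrays at 24 and 72 h and overlapped with them at 48 h, and after background correction they were apart at 72 h alone. The probe was above the detection limit on 4 of 6 GRHL1 arrays and on 6 of 6 empty vector arrays. The mean difference of -0.41 ± 0.15 SE did not pass the test (adjusted p = 0.281).

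At single times 0 of 35 genes was called in either direction at 24 h (0.381% of all genes higher and 0% lower), at 48 h (0.406% and 0.0406%) or at 72 h (0.308% and 0.0162%). At an unadjusted limma p under 0.05 there were 2 higher and 0 lower at 24 h (6.28% and 2.48% of all genes), 4 and 1 at 48 h (3.98% and 4.3%) and 2 and 0 at 72 h (3.79% and 3.66%). The test for a change of the plasmid difference with time called 0 genes of the list and 0.00811% of all genes, and at an unadjusted limma p under 0.05 it held 1 gene, LDHA, beside 5.39% of all genes. The medians of the glycolytic enzymes were 0.03, -0.04 and -0.05 at 24, 48 and 72 h, and those of the other targets 0.07, 0.04 and 0.05. Over all genes they were 0.02, -0.03 and -0.01.

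**Figure D3:**
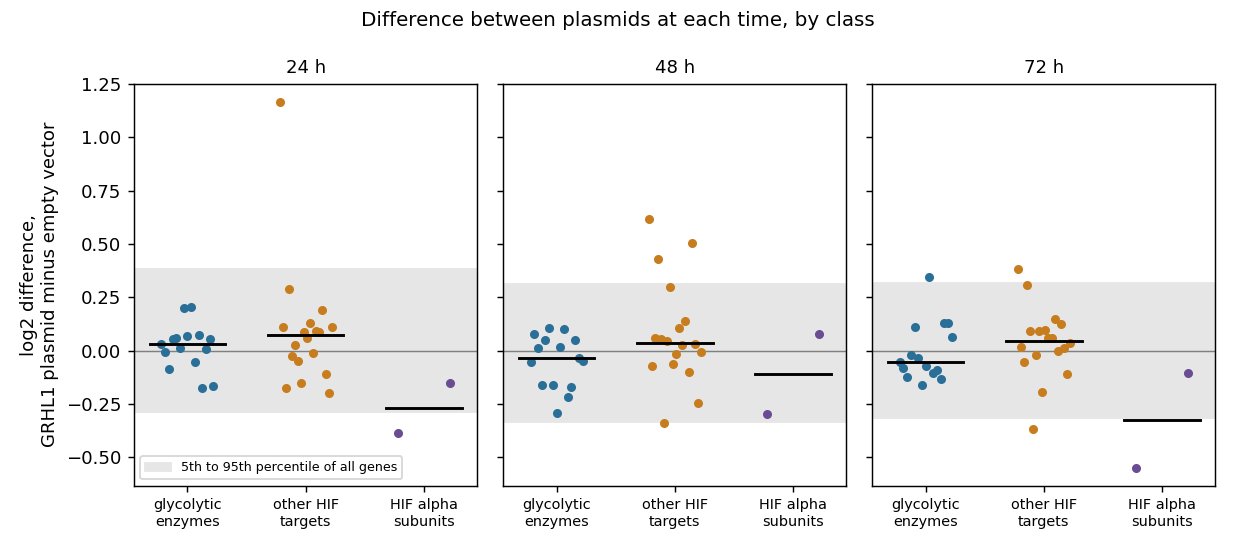
Log2 difference of GRHL1 plasmid minus empty vector at 24, 48 and 72 h, a point per gene, by class, with lines at class medians and a grey band from the 5th to the 95th percentile of all genes tested. ADM is the point at 1.17 at 24 h, and the medians run from -0.05 to 0.03 for the glycolytic enzymes and from 0.04 to 0.07 for the other HIF targets.

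Related genes outside the list were read for context, from 2 lists chosen by pathway. Of 36 genes of glycolysis and its branches 27 were tested and 0 was called in any comparison (1 higher and 1 lower between plasmids at an unadjusted limma p under 0.05). Of 44 HIF regulators and further hypoxia targets 36 were tested, and 1 rose with GRHL1 and 0 fell, beside 1.53% and 0.179% of all genes. At an unadjusted limma p under 0.05 this list held 6 higher and 1 lower gene, beside 6.51% and 5.7%. The called gene was NDRG1, a stress and hypoxia response gene also known as a target repressed by MYCN, with a difference of 1.59 ± 0.15 SE (adjusted p = 0.000333), made of 1.57 at 24 h (adjusted p = 0.0357), 1.83 at 48 h (adjusted p = 0.0125) and 1.39 at 72 h (adjusted p = 0.0679). Of the Schwann and glia markers, ERBB3 alone was tested and rose by 0.84 ± 0.08 SE (adjusted p = 0.000438). It read 175.7 to 186 in GRHL1 cells and 120.7 to 142.2 in empty vector cells. The latter range spans the detection limit of 128.3, so the size of the difference depends on the background correction. SOX10, S100B and GFAP were below the limit on all arrays. Of the other markers, 4 of 8 mesenchymal, 4 of 6 fibroblast, 1 of 5 endothelial and 2 of 6 leukocyte genes were tested and 0 was called between plasmids. CDH5, KDR and VWF of endothelium were below the limit on all arrays.

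Time after transfection was compared next, averaged over both plasmids. Which arrays are of 48 h and which of 72 h rests on the names of the normalized table alone. At 48 h against 24 h 1 of 35 genes fell and 0 rose, beside 0.292% and 0.227% of all genes. At an unadjusted limma p under 0.05 there were 5 higher and 6 lower, beside 7.31% and 6.41%. The gene was PFKFB3, an inducible enzyme known to respond to hypoxia and to growth signals. Probe ILMN_2186061 read 605.6 and 683.3 at 24 h, 479.3 and 429.2 at 48 h and 504 and 509.7 at 72 h in GRHL1 cells. In empty vector cells it read 616.4 and 604.1 at 24 h, 483.3 and 478.1 at 48 h and 528.2 and 486 at 72 h. All 4 arrays of 48 h and all 4 of 72 h lay below all 4 of 24 h. At 48 h 7 of 35 genes of the list and 4.47% of all genes lay apart in this way, and at 72 h 4 of 35 and 4.54%.

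The PFKFB3 difference was -0.48 ± 0.08 SE at 48 h (0.715-fold, 95% interval -0.65 to -0.31, adjusted p = 0.0305) and -0.35 ± 0.08 SE at 72 h (adjusted p = 0.0789), both against 24 h. At 48 h it was -0.58 with the GRHL1 plasmid and -0.39 with its empty vector, and neither passed the test alone (adjusted p = 0.0983 and 0.291). The dimmer probe ILMN_1660847 went the other way, by 0.21 ± 0.14 SE at 48 h and 0.30 ± 0.14 SE at 72 h (adjusted p = 0.655 and 0.424 over probes). The 48 h call was kept in 2 of 12 fits that left out 1 array, those without an empty vector array of 72 h, and the adjusted p ranged from 0.04 to 0.125. It was also lost without a detection filter (adjusted p = 0.131) and under the scanner table's names (adjusted p = 0.114).

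The other members of the steering and transport groups were not called with time. At 48 h against 24 h PFKFB4 stood at -0.36 ± 0.10 SE (adjusted p = 0.184) and SLC2A3 at -0.41 ± 0.11 SE (adjusted p = 0.168). SLC2A1 read 1343 and 1189 at 24 h, 1593 and 1496 at 48 h and 1711 and 1613 at 72 h in GRHL1 cells, against 1372 and 1350 at 24 h, 1480 and 1543 at 48 h and 1748 and 1557 at 72 h in empty vector cells. All 4 arrays of each later time lay above all 4 of 24 h (2 of 35 genes of the list and 3.87% of all genes at 48 h, 3 of 35 and 4.35% at 72 h), and its difference at 72 h was 0.35 ± 0.07 SE (1.28-fold, adjusted p = 0.0685).

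At 72 h against 24 h 0 of 35 genes was called (0.503% of all genes higher and 0.365% lower), and at an unadjusted limma p under 0.05 there were 8 higher and 4 lower, beside 8.65% and 6.6% of all genes. PFKL stood at 0.35 ± 0.07 SE (adjusted p = 0.0662). PGK1 stood at 0.24 ± 0.08 SE (adjusted p = 0.228) and BNIP3L at 0.26 ± 0.07 SE. Among the lower values were GPI at -0.18 ± 0.08 SE (adjusted p = 0.32) and ALDOA at -0.18 ± 0.06 SE (adjusted p = 0.231), whose other probes stood at 0.17 and 0.41. At 48 h against 24 h ALDOC (-0.29 ± 0.08 SE) and PKM (-0.25 ± 0.07 SE, other probes -0.23 and -0.24) were the lowest enzymes (adjusted p = 0.16 and 0.157). All 4 arrays of 48 h lay below all 4 of 24 h for both, and also for ALDOA and ENO1, while for PFKL they lay above. Below was seen for 7 of 35 genes of the list and 4.47% of all genes, above for 2 of 35 and 3.87%. EPAS1 was highest of all members at 48 h against 24 h, at 0.63 ± 0.18 SE (adjusted p = 0.186), and its 2 arrays below the limit were GRHL1 arrays of 24 and 72 h.

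Between 72 h and 48 h 0 genes of the list were called (0.0243% of all genes higher and 0% lower), with 6 higher and 1 lower at an unadjusted limma p under 0.05 (4.82% and 3.47% of all genes). Of the 35 genes 27 lay above 0 and 8 below, while 52.1% of all genes lay above 0. The medians of this comparison were 0.04 for the glycolytic enzymes, 0.10 for the other targets and 0.01 for all genes. Against 24 h the enzymes' median was -0.08 at 48 h and -0.02 at 72 h, the other targets' -0.07 and 0.04, and that of all genes 0.01 and 0.01. Within each plasmid alone 0 of 35 genes was called at 48 or 72 h against 24 h, beside 0.0406% of all genes higher and 0.0568% lower at 48 h and 0.122% and 0.0893% at 72 h in GRHL1 cells, and 0.00811% and 0% at 48 h and 0.0487% and 0.00811% at 72 h in empty vector cells. At an unadjusted limma p under 0.05 there were 3 higher and 6 lower at 48 h (3.96% and 5.89% of all genes) and 4 and 3 at 72 h (5.08% and 5.84%) in GRHL1 cells. Empty vector cells had 4 higher and 5 lower at 48 h (6.55% and 3.47%) and 4 and 1 at 72 h (7.24% and 3.47%).

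**Figure D4:**
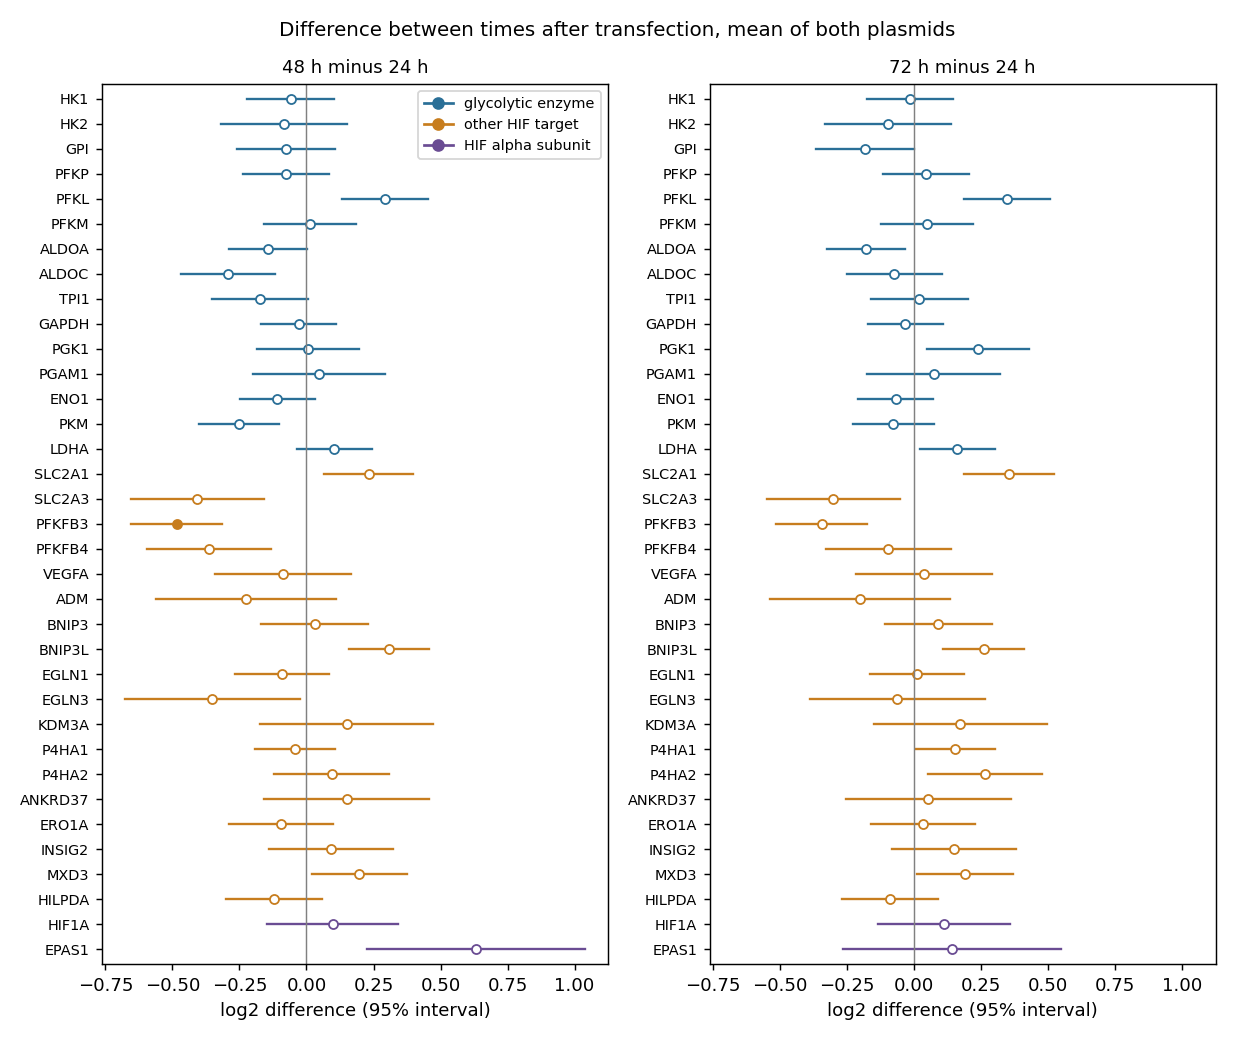
Log2 difference of 48 h minus 24 h (left) and 72 h minus 24 h (right) for each of the 35 tested genes, averaged over both plasmids, with 95% intervals as bars. PFKFB3 at 48 h (-0.48) is the filled, called point, and at 72 h SLC2A1 and PFKL (both 0.35) and PFKFB3 (-0.35) lie farthest from 0.

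Outside the list, 0 genes of the glycolysis branches were called with time (2 higher and 3 lower at 48 h and 1 higher and 3 lower at 72 h at an unadjusted limma p under 0.05). Of the 36 HIF regulators and further hypoxia targets tested, 0 rose and 2 fell at 48 h against 24 h, beside 0.227% and 0.292% of all genes, and 1 rose and 2 fell at 72 h, beside 0.503% and 0.365%. At an unadjusted limma p under 0.05 they held 4 higher and 4 lower at 48 h (7.31% and 6.41% of all genes) and 8 and 3 at 72 h (8.65% and 6.6%). DDIT4, an inhibitor of mTOR signalling, fell by 0.49 on the log2 scale at 48 h (adjusted p = 0.0141). BHLHE40, a transcriptional repressor, fell by 0.65 at 48 h (adjusted p = 0.0307) and by 0.54 at 72 h (adjusted p = 0.0492). STC1, which encodes the secreted glycoprotein stanniocalcin, rose by 0.79 at 72 h (adjusted p = 0.0176), and JMJD6, an oxygen-dependent hydroxylase, fell by 0.39 (adjusted p = 0.0452).

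The promoters of ADM and PFKFB3, the called genes whose sequence was at hand, are shown to set the measured changes beside the letters a HIF complex is known to bind, ACGTG or GCGTG, searched on both strands. LDHA, not called between plasmids or times, is set beside them and was chosen after its values and letters were seen. Each sequence is the RefSeq window of GRCh38.p14 from 250 bases before the start of the gene to 50 after it, 5′ to 3′ on the gene's strand, with matches of either motif on either strand in capitals.
ADM, chr11:10304823-10305122, plus strand: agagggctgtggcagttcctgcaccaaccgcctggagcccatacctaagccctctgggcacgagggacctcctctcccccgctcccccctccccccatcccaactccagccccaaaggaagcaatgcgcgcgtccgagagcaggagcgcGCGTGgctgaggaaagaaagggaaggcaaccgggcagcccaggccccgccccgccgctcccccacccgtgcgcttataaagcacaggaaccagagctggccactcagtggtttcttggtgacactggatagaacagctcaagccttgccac
PFKFB3, chr10:6144671-6144970, plus strand: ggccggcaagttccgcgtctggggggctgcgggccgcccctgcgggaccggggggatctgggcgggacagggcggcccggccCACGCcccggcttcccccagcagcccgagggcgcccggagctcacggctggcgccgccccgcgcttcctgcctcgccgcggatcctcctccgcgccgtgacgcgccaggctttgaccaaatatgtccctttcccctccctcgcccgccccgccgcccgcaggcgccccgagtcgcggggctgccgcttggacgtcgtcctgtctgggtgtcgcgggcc
LDHA, chr11:18394313-18394612, plus strand: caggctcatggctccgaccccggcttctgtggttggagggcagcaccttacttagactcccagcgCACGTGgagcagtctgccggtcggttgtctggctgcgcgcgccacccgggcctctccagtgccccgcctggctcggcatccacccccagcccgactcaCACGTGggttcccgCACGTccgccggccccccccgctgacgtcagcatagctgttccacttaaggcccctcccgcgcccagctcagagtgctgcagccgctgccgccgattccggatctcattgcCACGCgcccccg
The ADM and PFKFB3 windows each hold 1 match of GCGTG and 0 of ACGTG. The LDHA window holds 5 matches of ACGTG, 4 of them in 2 palindromes CACGTG that count on each strand, and 1 of GCGTG.

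Of the 38 genes 34 had such a window, and SLC2A3, VEGFA, BNIP3L and HILPDA did not match the table. ACGTG stood in 7 of 15 glycolytic enzyme windows (46.7%), in 7 of 17 windows of other targets (41.2%) and in 21.6% of all 27305 windows. GCGTG stood in 7 of 15 (46.7%), 9 of 17 (52.9%) and 36.3%. The grainyhead motif AACCGGTT stood in 0 of 34 windows of the list and in 0.117% of all windows. The windows of other targets include those of SLC16A3, CA9 and PDK1, whose mRNA was not tested. All windows were not matched to those of the list for their content of G and C, and no test of the shares was made. A match describes letters in these windows and is no measured binding.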

How the data were processed

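Total RNA of BE(2)-C cells was read on Illumina BeadChips as biotin-labelled cRNA, 2 arrays for each of 6 groups, with groups and replicate numbers taken from the sample titles. The authors deposited a normalized table of linear intensity values, made by a method not given in the sources used here, and a scanner table that holds intensity and a detection p-value for each probe, per the file headers. The best rank correlation of a scanner column with a normalized one was never under 0.999973, the next best reaching 0.8757, and 7 of 12 matches joined different sample names. From the scanner table came the number of arrays that detected a probe (p under 0.01 and a signal above the array's background) and 1 alternative.

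The background of the deposited intensity was corrected in limma (normexp, offset 16) before log2 was taken, and the probe's median filled 1 missing value. Probes with 1 gene symbol in the platform annotation (30113, with several for 8 and none for 17202) and detected on at least 2 of 12 arrays were kept, and the brightest stood for its gene. Of their Entrez identifiers 30074 were found in the RefSeq gene table of GRCh38.p14, which changed 0 symbols. Differences were fitted over all 12 arrays with lmFit (6 group means) and eBayes (6 residual and 3.72 prior degrees of freedom) and adjusted with Benjamini-Hochberg over 12323 genes. The fit was tested on simulated data. R 4.3.3, limma 3.58.1, Python 3.11.15, pandas 2.3.3 and matplotlib 3.10.9 were used.

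The genes, pathway lists and markers were chosen with earlier results of these data known. Named are genes called in any comparison, HIF1A and EPAS1, up to 3 genes with the smallest p in groups with no call, as values only, and other probes that differ in sign or call, with no difference for those at or under the limit on most arrays. Further values are given as ranges or single differences. Alternatives covered background correction, offset, scaling, detection filter, probe choice, variance model, sample names, pairing and single arrays. The design text gives paired plasmids at 3 times in duplicate. Same-numbered arrays of a time had deviations that correlated with r = 0.114, 0.0175 and 0.03 at 24, 48 and 72 h, so the numbers were not taken as pairs in the main fit. The 24 h value was the highest of all pairs of groups, and a fit with a replicate block is among the alternatives.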

Additional observations from a re-analysis of the deposited data

Results flagged for a closer look

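In 4 genes of the list both GRHL1 arrays lay above both empty vector arrays at one time and below both at another, a pattern that 1458 of 12323 genes (11.8%) also showed, against 4 of 35 here. The change with time was tested once per gene with limma's moderated F test, and no gene of the list passed after adjustment. LDHA had plasmid differences of 0.07, -0.29 and -0.07 on the log2 scale at 24, 48 and 72 h (F test p of 0.048, adjusted p = 0.906). HILPDA had -0.15, 0.30 and 0.09 (F test p of 0.0576, adjusted p = 0.906). HK2 had 0.20, -0.16 and -0.16 (F test p of 0.194, adjusted p = 0.987), and its second probe gave 0.08, 0.15 and 0.03. GAPDH had 0.06, -0.16 and -0.02 (F test p of 0.259, adjusted p = 0.995). The second LDHA probe gave -0.02, -0.12 and -0.21. Groups of 2 arrays are too small for a test of single outlying arrays.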

How the results depend on the processing

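The plasmid calls of ADM and BNIP3L (2 genes) numbered 0 without a detection filter and 0 with the scanner table's sample names, and 1 to 2 when 1 array was left out. The scanner names put arrays with a high GRHL1 probe among the empty vector arrays, so plasmid calls lost under them are no check of those calls. ADM lost its call without 1 of 6 arrays, namely empty vector 24 h replicate 1 (adjusted p = 0.0524) and 48 h replicate 1 (0.056) and GRHL1 24 h replicates 1 (0.0543) and 2 (0.0527), 48 h replicate 1 (0.056) and 72 h replicate 1 (0.0618). At 24 h 1 gene, ADM, was called without background correction, with offset 50, with detection on at least 6 arrays and with a variance trend and robust estimates (0 in the report), and 0 to 1 when 1 array was left out. With the 24 h arrays alone, a fit chosen after seeing the data, 0 were called. At 48 h against 24 h the count was 2 without background correction (BNIP3L higher, PFKFB3 lower), 4 with a variance trend and robust estimates (also ALDOC and PKM lower), 0 without a filter, 0 with all probes as features, 0 with the scanner names, and 0 to 1 when 1 array was left out. The fall of PFKFB3 then ranged from -0.533 to -0.435. At 72 h against 24 h the count was 2 without background correction and 2 with offset 50 (SLC2A1, PFKFB3), 2 with at least 6 arrays (SLC2A1, PFKL) and 3 with the variance trend (SLC2A1, PGK1, PFKFB3). Within GRHL1 cells PFKFB3 alone (1 gene) was called at 48 h without background correction, with offset 50 and with the variance trend, and SLC2A1 (1 gene) at 72 h with the variance trend. With same-numbered arrays as a replicate block the plasmid count was 1 (BNIP3L, adjusted p = 0.0471, ADM 0.082) and the 48 h count 2 (EPAS1 higher, PFKFB3 lower), and no other count of calls changed. The median of the enzymes minus that of the other targets was -0.0584 between plasmids, -0.0117 with the scanner names and -0.081 to -0.0141 when 1 array was left out (nearest 0 without empty vector 24 h replicate 1). At 72 h against 24 h it was -0.0595, -0.106 with the scanner names and -0.132 to -0.0246 when 1 array was left out. No result changed direction under these settings. Single probes did differ in direction, as given above: the dimmer PFKFB3 probe went the other way with time, and other probes of several enzymes did so between plasmids. The cause of these changes was not tested.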

Other observations

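Probe ILMN_2280135, another of P4HA2, was chosen for mention after its values were seen. It read 137.5 and 128.6 at 72 h in GRHL1 cells and 133.4 and 136.2 at 72 h in empty vector cells, against 100.7 and 103.3 at 24 h in GRHL1 cells and 123.2 and 117.7 at 24 h in empty vector cells. All 4 arrays of 24 h lay below the detection limit of 128.3 and all 4 of 72 h above it. It was detected on 4 arrays, so no difference or test is given.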
